A study of Mus musculus with 400 samples.

Results

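Epithelial cells of mouse small intestinal crypts, sorted for a high level of Lgr5, were compared by their Myc transcripts: cells with several Myc counts against cells with none. Cells were kept when their counts summed to 10000 or more, which left 380 of 400 cells. Both classes were chosen by the measured Myc count of the cell. The 33.7% of kept cells with a count of 3 or more (60 cells with 3 or 4 counts and 68 with 5 or more) are called Myc-rich, and the 40.8% with a count of 0 are called Myc-negative. The other 97 kept cells, 63 with 1 count and 34 with 2, entered neither class. In the 20 shallower cells, totals ran from 4491 to 9841, 1 cell had a Myc count, and 0 had a Myc count of 3 or more.

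The series holds single-cell mRNA counts of 1 sorted population. The mice were Lgr5 GFP/+, with EGFP, an internal ribosome entry site and the tamoxifen-dependent recombinase Cre-ERT2 placed at the Lgr5 locus, so every cell carries 1 modified Lgr5 allele. Crypts came from duodenum and jejunum, were dissociated with EDTA and dispase, and live cells that excluded DAPI were sorted and captured on a Fluidigm C1 chip with SMARTer cDNA chemistry. The labels state that mice were matched for age and sex without giving either, mention a second line (Cyp1a1::H2B-YFP) and a tamoxifen dose of 2 mg/kg for lineage tracing, and tie neither to these cells. No label names an animal, so all cells are 1 sample: no p-value or standard error was computed, and the spread given below is over the 10 library sets of 40 capture barcodes that the cell titles number, which is a technical spread. The same 40 barcode numbers recur in each set, and no cells had identical columns. Because Myc itself chose the cells, its values are a description, and Myc was left out of all that follows.

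Myc is a transcription factor of the basic helix-loop-helix leucine zipper family. It binds DNA as a dimer with Max, at E-box sites of which CACGTG is the best known form, and its target genes serve ribosome production, nucleotide and polyamine synthesis, and cell growth. The Mxd proteins, Mxi1 and Mnt also pair with Max and oppose Myc at such sites. In intestinal crypts Myc is a target of Wnt signalling, which also maintains the Lgr5-positive stem cells at the crypt base.

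Myc (ENSMUSG00000022346; GRCm38 chromosome 15, 61985391 to 61990374, plus strand) spans 4.98 kb. Its counts ran from 0 to 13 without a gap between the classes. Just outside the limit, 34 cells had 2 counts, and just inside it, 32 cells had 3 counts. Myc-rich cells had a median of 5 counts and a mean of 153.5 CPM (counts scaled to the same total in every cell), with a range of 51.1 to 494 CPM. Over the kept cells the mean Myc count was 2.13 and the variance 7.16, a ratio of 3.36. The 924 protein-coding genes with a like mean count (1.92 to 2.34) had a median ratio of 2.96, and 12% of them had a ratio above that of Myc. Zero counts were more frequent for Myc, at 40.8% of cells, than for most of these genes, whose median was 31.6%, and 17 of the 924 had more cells at 0. Every library set held both classes, with 10 to 19 Myc-rich cells (25.6 to 48.7% of its cells) and 10 to 19 Myc-negative cells (25.6 to 51.4%).

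**Figure D1:**
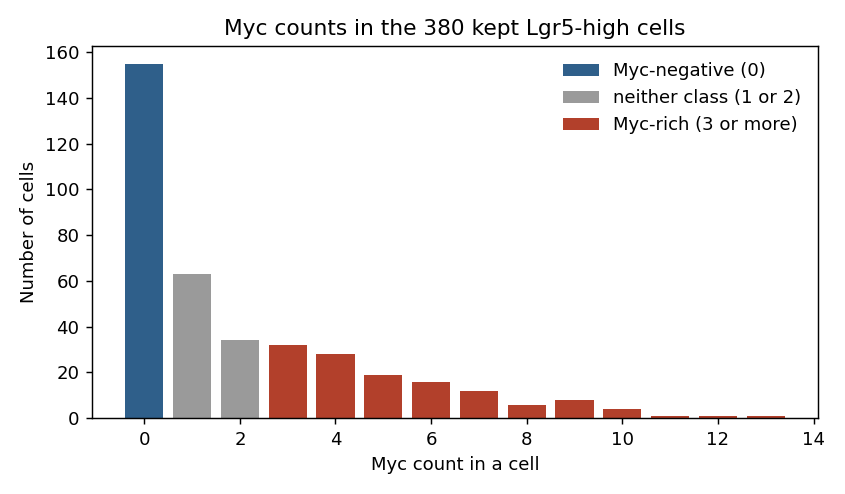
Number of kept cells (y axis) at each Myc count (x axis), coloured by class. Cells at 0 form the highest bar, 40.8% of the kept cells, and the 97 cells with 1 or 2 counts lie between the classes without a gap.

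The classes differed in depth and in the kind of genes that supplied their counts. Total counts had a median of 36060 in Myc-rich cells (14178 to 63342) and 28389 in Myc-negative cells (10766 to 55423), and the Myc-rich cells were deeper in 10 of 10 library sets. The classes are limits on the raw Myc count, so deeper cells enter the Myc-rich class more readily by construction. The Myc-rich share of cells was 11.8, 27.6, 35.5, 39.5 and 53.9% over 5 equal groups of cells from the shallowest to the deepest. Counts of genes that span 100 kb or more of the genome, called the long-gene share, made up a median of 13.8% of counts in Myc-rich cells (10.9 to 29.6%) and 17.3% in Myc-negative cells (11 to 34.5%). The Myc-negative median was higher in 10 of 10 sets, by 0.58 to 5.78 percentage points. Over 5 equal groups from the lowest to the highest long-gene share, Myc-rich cells were 43.4, 51.3, 35.5, 26.3 and 11.8% of cells. Below the median long-gene share 47.9% of cells were Myc-rich and 26.8% Myc-negative, and above it 19.5% and 54.7%. Myc-negative cells had fewer genes with a count, with a median of 8503 against 8901. Per 1000 counts they had more, 301.6 against 243.5, a quantity that is lower in deeper cells. Their mitochondrial share was higher, 0.975% against 0.805%. The part of long-gene share and mitochondrial share in the Myc contrast was not tested. Each ratio below is therefore given without weights and after the Myc-negative cells were weighted to the Myc-rich cells over 9 strata of total counts by long-gene share, called the joint weights.

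**Figure D2:**
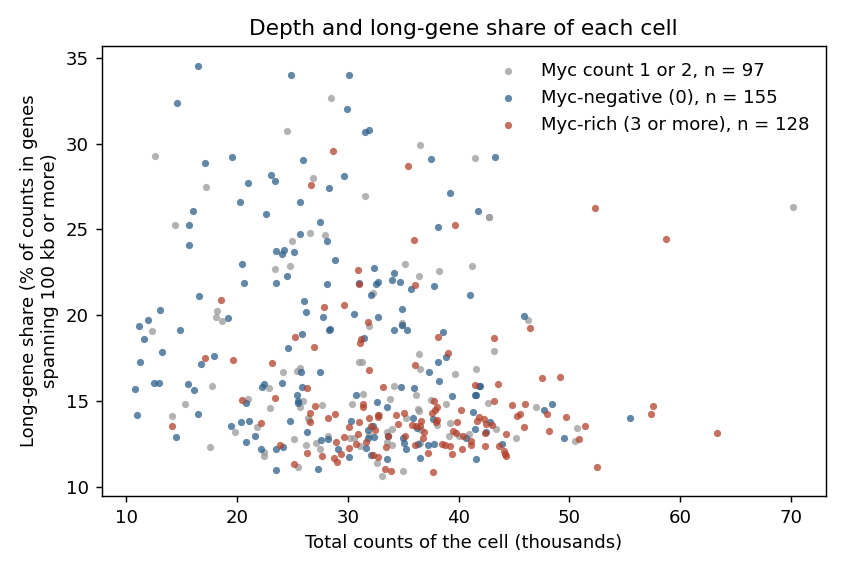
Total counts (x axis, in units of 1000) against long-gene share (y axis, % of counts) for each kept cell, with Myc-rich cells in red, Myc-negative cells in blue and cells with 1 or 2 Myc counts in grey. Myc-rich cells are deeper (median 36060 against 28389) and have a lower long-gene share (median 13.8 against 17.3%), and the classes overlap throughout.

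Both classes carried the labelled identity. All 8 epithelial markers and all 6 stem cell markers were measured. A gene is called measured here where at least 20% of kept cells had a count of it and its mean reached 20 CPM in Myc-rich or in Myc-negative cells. Lgr5 had a median of 7 counts in Myc-rich and 5 in Myc-negative cells, and a log2 ratio of mean CPM of -0.04 that ranged from -0.43 to 0.55 over the library sets. At an equal depth of 19169 counts, a Lgr5 count was found in 96% of Myc-rich and 96.2% of Myc-negative cells. The median log2 ratio was 0.03 over the epithelial and -0.01 over the stem cell markers. No enteroendocrine, stromal, red blood cell or glial marker was measured. As a reading of background at the same thinned depth, Col1a1, a collagen gene of stromal cells, had a count in 0.8% of Myc-rich and 3.82% of Myc-negative cells. Cd3e, of T cells, had a count in 4% and 6.87%, and Ptprc, of all leukocytes, in 15.2% and 22.1%. The 2 endothelial markers that were measured, Pecam1 and Emcn, had log2 ratios of -1.41 and -1.01, and -0.73 and -0.15 with the joint weights. Both genes span more than 90 kb.

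Of 11420 measured genes, 1384 were past the fold with higher levels in Myc-rich cells (12.1%) and 1709 with lower levels (15%). Past the fold means a ratio of mean CPM of at least 1.2-fold with a pseudocount of 1 CPM. It also asks for the same direction after weighting to equal depth, and in at least 8 of 10 library sets. For every gene named below as past the fold, agreement over the sets and at equal depth was therefore part of the choice. Shares of cells at equal depth come from the same cells. Both describe the gene and are no separate support. Weighted to equal depth alone, 923 genes were past the fold higher (8.08%) and 1615 lower (14.1%). With the joint weights the counts were 535 higher (4.68%) and 763 lower (6.68%). Of the 1384 genes, 515 (37.2%) were also past the fold with the joint weights, as were 748 of the 1709 (43.8%), and 10.3% and 14% changed side. The median log2 ratio of all measured genes was 0.06 without weights, 0.03 at equal depth and 0.00 with the joint weights.

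The genes with the highest ratios had few counts per cell. A gene counts as measured through either class, and 14 of the 15 highest were under 20 CPM in Myc-negative cells and 9 of the 10 lowest under 20 CPM in Myc-rich cells, so these genes entered through the class in which they were high. Over all kept cells, 5 of the 15 and 5 of the 10 had a mean of 20 CPM or more. Of all genes past the fold, 11.9% of the higher and 41.3% of the lower were measured through 1 class only. These genes are a description of the ends of the table. Fbrs, which encodes a protein of the fibrosin family, had a mean of 26.5 CPM in Myc-rich and 8.01 CPM in Myc-negative cells. Its log2 ratio of 1.61, a 3.05-fold difference, ranged from -1.10 to 4.44 over the sets. Its median count was 0 in both classes, so most cells of either class had no Fbrs count. Cd14, the coreceptor of lipopolysaccharide sensing, reached 1.53, but ranged from -3.86 to 3.81 over the sets. Gimap9, a GTPase of the immunity-associated family, reached 1.43 (-0.06 to 2.99). Gimap9 was found in 36.8% of Myc-rich (28.4 to 45.9%, exact 95% binomial interval, which covers counting error only) and 14.5% of Myc-negative cells (8.96 to 21.7%) at equal depth. Zfp598, a ubiquitin ligase that acts on collided ribosomes, had 51.6 and 18.7 CPM, a log2 ratio of 1.42 that was positive in 9 of 10 sets. The other 11 of the 15 highest protein-coding genes were Golt1b, Slc39a3, Rbm3, Prmt6, Pcdh8, 2410131K14Rik, Tmem115, Hax1, Prkab2, Atoh8 and Gm38393, at 1.06 to 1.27. Slc39a3, a zinc importer of the plasma membrane, was higher in 10 of 10 sets (0.47 to 3.49), and so was Hax1 (0.10 to 4.37). All 15 were past the fold with the joint weights too, at 0.45 (Hax1) to 1.68 (Cd14). The library-set and equal-depth conditions are the same there, so the choice of these genes had already met them. Fbrs, Rbm3, Prmt6, Pcdh8, Hax1, Prkab2 and Gm38393 share exonic bases with a neighbouring gene.

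The 10 genes with the lowest ratios spanned 66.4 kb or more, apart from 2 defensins. Vwa3a had a mean of 5.94 CPM in Myc-rich and 26.7 CPM in Myc-negative cells, a log2 ratio of -2.0 (-5.65 to 0.03 over the sets). Masp1, a protease of the lectin pathway of complement, stood at -1.99 and was lower in 10 of 10 sets. Necab1, which encodes a calcium-binding protein and spans 197.6 kb, was found in 15.2% of Myc-rich and 47.3% of Myc-negative cells at equal depth, and its log2 ratio was -1.67 (-3.28 to -0.63). Next came Defa35 at -1.72, Defa22 at -1.65, Aldh1a2 and C1qtnf7 at -1.63, Otof at -1.62, and Mkx and Snap91 at -1.58. The joint weights left all 10 past the fold but nearer to 0, from -1.18 (Defa35) to -0.64 (Aldh1a2). Here too the library-set and equal-depth conditions had been met by the choice of the genes. In the cells below the median long-gene share, Masp1 and Aldh1a2 were higher in Myc-rich cells, at 0.63 and 0.35.

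Gene span ordered the ratios over the whole table. Protein-coding genes past the fold higher had a median span of 14.2 kb, those lower 168.8 kb, and all measured protein-coding genes 32.9 kb. Genes spanning 100 kb or more made up 2.01% of the higher, 70.1% of the lower and 21.6% of all measured protein-coding genes. The median log2 ratio was 0.20 for genes under 10 kb, 0.14 from 10 to 30 kb, 0.02 from 30 to 100 kb, -0.35 from 100 to 300 kb and -0.67 for longer genes. Over the 10 library sets the last value ranged from -1.11 to -0.22 and the first from 0.06 to 0.36, so the set medians of the shortest and the longest genes did not overlap. Of the genes spanning 300 kb or more, 71.5% were past the fold lower. With the joint weights the same 5 medians were 0.02, 0.02, 0.01, -0.05 and -0.09, which the use of long-gene share in the weights bears on directly. The rank correlation of ratio and span was -0.57 across 11380 genes without weights and -0.16 with the joint weights, where genes share the same cells and are not replicates. By RNA class, long intergenic noncoding RNAs took a median of 1.34% of counts in Myc-rich and 1.81% in Myc-negative cells, and processed pseudogenes 7.59% and 5.98%.

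**Figure D3:**
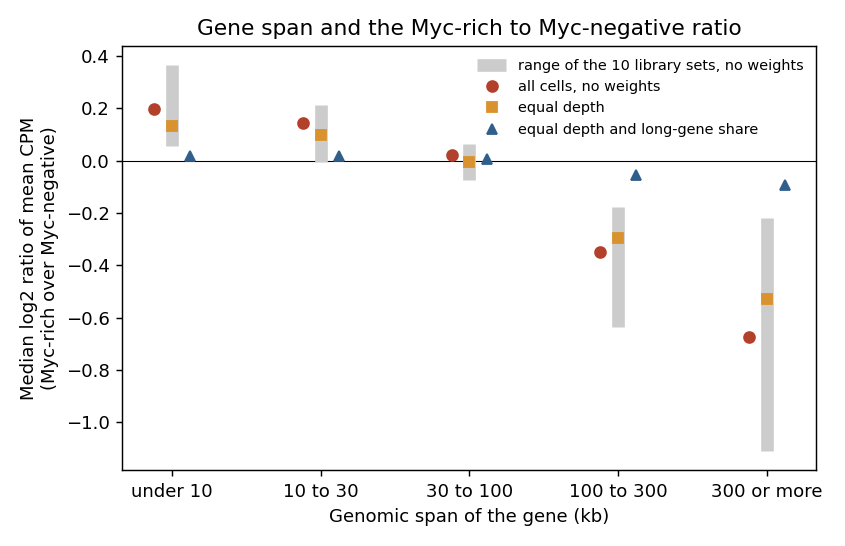
Median log2 ratio of mean CPM, Myc-rich over Myc-negative (y axis), for measured protein-coding genes in 5 classes of genomic span (x axis, kb), without weights (circles), at equal depth (squares) and at equal depth and long-gene share (triangles), with grey bars for the range of the 10 library sets without weights. Ratios fall from 0.20 in the shortest to -0.67 in the longest genes, and lie between -0.09 and 0.02 with the joint weights.

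Among the Myc network, 4 of 23 measured genes were past the fold higher (17.4%) and 1 lower, beside 12.1% and 15% of all measured genes. Mxd4, which pairs with Max in place of Myc, had a mean of 46.4 CPM in Myc-rich and 29.7 CPM in Myc-negative cells, with at most 14 and 10 counts in a cell. Its log2 ratio was 0.63, positive in 9 of 10 sets (-1.55 to 1.47), and 0.67 with the joint weights. Mycl, a paralog of Myc, stood at 0.59, with 55 and 36.2 CPM, and at 0.23 with the joint weights. The transcription factor gene Sp1 was at 0.36, and at 0.26 with the joint weights, where it was not past the fold. Fbxw7, the ubiquitin ligase subunit that marks Myc protein for degradation, was the 1 lower member, with 45.3 CPM in Myc-rich and 73.3 CPM in Myc-negative cells, a log2 ratio of -0.68, and -0.48 with the joint weights. It was lower in 9 of 10 sets and spans 163.9 kb. The obligate partner Max was not past the fold, at -0.10 (-3.73 to 1.29), nor were the antagonists Mxd1 at -0.38, Mnt at -0.41, Mxi1 at 0.21 and Mxd3 at 0.37. Trrap, Ep400, Ruvbl1, Ruvbl2 and Wdr5, cofactors that act on chromatin, lay between -0.09 and 0.52 and were not past the fold. Kat5 and Mycn were not measured. The median of the list was 0.10 without weights and 0.03 with the joint weights, and over the sets it ranged from -0.07 to 0.66.

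Pvt1, a long noncoding RNA gene that lies next to Myc (chromosome 15, 62037986 to 62378096) and spans 340 kb, was named after its values had been seen. It had a mean of 39.8 CPM in Myc-rich and 58.7 CPM in Myc-negative cells and a log2 ratio of -0.55, lower in 9 of 10 sets. With the joint weights the ratio was 0.00, and it has exons that overlap other genes.

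Of 75 measured genes of ribosome biogenesis, 9 were past the fold higher (12%) and 0 lower, the same share as the 12.1% of all measured genes. The 9 were Ddx47, Fbl, Mrto4, Mybbp1a, Nob1, Noc4l, Polr1b, Polr1d and Utp18, at 0.27 to 0.54. Fbl, the methyltransferase that modifies ribosomal RNA, had 59.1 and 40.4 CPM and a log2 ratio of 0.54 (-0.59 to 2.04 over the sets), and it alone was past the fold with the joint weights, at 0.29. The nucleolar proteins Ncl and Npm1 stood at -0.04 and -0.08. The list median was 0.13 without weights and -0.03 with the joint weights. All but 1 of the list's 76 genes were measured. Of 19 genes of RNA polymerase III, 1 was higher, Gtf3c4 at 0.82, and the median was 0.27, or 0.07 with the joint weights.

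Nucleotide synthesis gave 4 of 27 genes higher (14.8%) and 0 lower, a share near the 12.1% of all measured genes, so its members are given as single genes. Impdh2, the rate-limiting enzyme of guanine nucleotide synthesis, had a median of 4 counts in Myc-rich and 1 in Myc-negative cells, and at most 12 and 10. Its mean was 105.9 against 65.4 CPM, a log2 ratio of 0.69 that was positive in 10 of 10 sets (0.24 to 1.21) and 0.36 with the joint weights. Set agreement had been part of its choice, as for the other list members past the fold. At equal depth Impdh2 was found in 76% of Myc-rich (67.5 to 83.2%) and 57.3% of Myc-negative cells (48.3 to 65.9%). Cad, which starts pyrimidine synthesis, had 50.1 and 31.4 CPM, a log2 ratio of 0.66 and 0.36 with the joint weights, and its set values ranged from -1.52 to 1.60. Dhodh, which acts after Cad in the same route, was at 0.49, and 0.55 with the joint weights. Adsl, of purine synthesis, was at 0.28 and -0.06. Pfas, also of purine synthesis, was at -0.64 and not past the fold. The list median was 0.08, and -0.07 with the joint weights. With those weights 3 of the 27 were past the fold higher (11.1%, beside 4.68% of all genes) and 0 lower.

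Of 22 genes of polyamine and one-carbon metabolism, 3 were higher (13.6%, near the 12.1% of all genes) and 1 lower (4.55%, under the 15% of all genes). Its members are therefore given as single genes. With the joint weights 2 of the 22 were past the fold higher (9.09%, beside 4.68% of all genes) and 1 lower (4.55%, beside 6.68%). Srm, spermidine synthase, had a median of 3 counts in Myc-rich and 1 in Myc-negative cells, 97.9 against 68.2 CPM, a log2 ratio of 0.52, and 0.31 with the joint weights. At full depth Srm was found in 79.7% of Myc-rich and 69% of Myc-negative cells. Thinned to 19169 counts the shares were 64.8% and 64.9%, and in 20 other random draws the Myc-rich share was higher by 3.73 to 13.2 percentage points, so the equal shares came from 1 draw. Ahcy, which recycles S-adenosylhomocysteine, was at 0.55 and 0.28, and Sat1, a polyamine acetyltransferase, was higher too. Psph, of serine synthesis, was lower, at -0.34 and -0.73. Odc1, the first enzyme of polyamine synthesis and a textbook Myc target, was at 0.26, just under the fold, with 73.9 and 61.6 CPM, and at -0.11 with the joint weights.

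Translation factors gave 1 of 34 genes higher (2.94%), Eif3m at 0.35, and 1 lower (2.94%), Eif2b3 at -0.47, beside 12.1 and 15% of all genes. None of 22 aminoacyl-tRNA synthetase genes and none of 23 chaperone genes was past the fold, with medians of 0.04 and 0.07 without weights and -0.15 and -0.03 with the joint weights. In glycolysis 3 of 14 genes were higher (21.4%, beside 12.1% of all genes), Eno1 at 0.68, Pgam1 at 0.38 and Pgk1 at 0.35. None of the 3 was past the fold with the joint weights. Hk1, which phosphorylates glucose and spans 111.1 kb, was lower at -1.48 in 10 of 10 sets (-1.86 to -0.73), with 12 and 35.4 CPM, and at -0.83 with the joint weights. In the cells below the median long-gene share its ratio was 0.31. Ldha, lactate dehydrogenase, stood at -0.10.

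Of 7 growth and Myc network genes past the fold higher with and without the joint weights whose promoters were read, 2 (Impdh2 and Mxd4) hold the E-box CACGTG within 250 bases before the RefSeq start, and Ahcy, Cad, Gtf3c4, Mrpl40 and Mrps31 do not. Fbl, Dhodh, Srm and Mrpl4 were past the fold in both ways too, but their promoters were not read. Both matches (in capitals) and 1 promoter without it are shown (RefSeq, GRCm38.p6, each 5′ to 3′ on the strand of the gene). The Impdh2 sequence is chr9:108560186-108560435 (plus strand), with the E-box 110 bases before the start, and RefSeq places that start 150 bases from the annotated one used for the counts. The Mxd4 sequence is chr5:34187711-34187960 (minus strand), with the E-box in the distal part of the window. The Cad sequence is chr5:31054530-31054779 (plus strand) and has none in this window.
Impdh2: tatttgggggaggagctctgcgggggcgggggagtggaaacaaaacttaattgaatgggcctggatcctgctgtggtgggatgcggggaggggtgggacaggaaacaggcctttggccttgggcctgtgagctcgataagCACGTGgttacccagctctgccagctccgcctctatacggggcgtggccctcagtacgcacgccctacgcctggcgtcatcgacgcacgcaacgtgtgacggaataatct
Mxd4: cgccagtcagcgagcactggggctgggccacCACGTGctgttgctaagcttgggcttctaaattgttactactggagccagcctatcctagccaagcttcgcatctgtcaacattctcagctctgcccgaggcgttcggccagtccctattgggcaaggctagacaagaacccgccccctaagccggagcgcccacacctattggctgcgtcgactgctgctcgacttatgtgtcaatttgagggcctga
Cad: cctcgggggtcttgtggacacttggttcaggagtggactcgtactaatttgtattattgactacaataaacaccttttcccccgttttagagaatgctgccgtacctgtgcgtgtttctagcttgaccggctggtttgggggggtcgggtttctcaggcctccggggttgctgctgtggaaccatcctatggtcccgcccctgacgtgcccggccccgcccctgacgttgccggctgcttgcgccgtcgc

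Promoters of 300 bases, from 250 before to 50 after the start, were matched by symbol for 7935 measured protein-coding genes. CACGTG, which reads the same on both strands, occurred in 10.3% of them. It occurred in 11.5% of the promoters of genes past the fold higher and in 6.77% of those lower, and with the joint weights in 11.4% and 7.22%. The motif holds a CpG, and the promoters differed in CpG ratio, observed over expected. Its median was 0.811 for the higher and 0.636 for the lower genes, and 0.792 and 0.645 with the joint weights. The part of base composition in the motif shares was not tested. Among the lists, the motif was in 12 of 65 promoters of ribosome biogenesis genes (18.5%), 5 of 23 of nucleotide synthesis (21.7%), 5 of 65 of the mitochondrial ribosome (7.69%), 3 of 56 of G2 and M phase (5.36%) and 1 of 18 of polyamine and one-carbon metabolism. None of 7 Paneth cell promoters held it, and these had a median CpG ratio, observed over expected, of 0.088 against 0.789 for all. A match is a string of letters and no measured binding site.

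Nuclear genes of mitochondrial ribosomal proteins gave 19 of 74 members past the fold higher (25.7%) and 0 lower, beside 12.1% of all measured genes and 19.6% of genes spanning under 10 kb. The list had a median log2 ratio of 0.23 that was positive in 10 of 10 sets (0.04 to 0.44). Mrps31, of the small subunit, had a median of 4 counts in Myc-rich and 1 in Myc-negative cells, 115.6 against 65.8 CPM, a log2 ratio of 0.80, and 0.46 with the joint weights. It was found in 83.2% of Myc-rich (75.5 to 89.3%) and 58% of Myc-negative cells (49.1 to 66.6%) at equal depth. Mrps18b stood at 0.83, Mrps33 at 0.61, Mrps36 at 0.58 and Mrpl4 at 0.56. With the joint weights 3 of the 74 were past the fold higher (4.05%, beside 4.68% of all genes), Mrps31, Mrpl4 at 0.43 and Mrpl40 at 0.29, and the list median was 0.02. The members had a median span of 7.90 kb, in the class of genes under 10 kb whose median ratio was 0.20 over the whole table.

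Cytosolic ribosomal protein genes, 82 measured with a median span of 3.27 kb, gave 19 higher (23.2%) and 0 lower, beside 12.1% of all genes and 19.6% of genes under 10 kb, and 0 in either direction with the joint weights, where the median was 0.02. Rpl23a at 0.67 and Rps13 at 0.60 were the highest of them. Many of these genes have near-identical pseudogenes among which reads can be split, so single members are uncertain. Proteasome genes gave 6 of 31 higher (19.4%), among them Psmc5 at 0.40 and Psma3 at 0.39, and 0 with the joint weights. The mitochondrial genome itself went the other way without weights: 9 of its 15 genes were lower (60%, beside 15% of all genes), with a median of -0.33. mt-Rnr2, the large ribosomal RNA, had 897 and 1184 CPM, a ratio of -0.40 that was negative in 10 of 10 sets. At equal depth the median was -0.04 and that of mt-Rnr2 -0.05, and no member was past the fold with the joint weights.

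Genes of G2 and M phase were higher in Myc-rich cells than in Myc-negative cells. The summed level of the 66 genes, all of them measured, had a median of 10139 CPM in Myc-rich cells (2760 to 15593) and 8086 CPM in Myc-negative cells (2452 to 15405), so the classes overlapped over nearly the whole range. Of the 66 genes, 22 were past the fold higher (33.3%) and 1 lower, beside 12.1% and 15% of all genes, and the median log2 ratio of 0.30 was positive in 10 of 10 sets (0.04 to 0.49). Kif20a, a kinesin of cytokinesis, had 83.6 and 51.8 CPM, a ratio of 0.68, and was found in 64.8% and 46.6% of cells at equal depth. Aurka, the kinase of spindle poles, stood at 0.62, Kif2c at 0.57, Kif18a at 0.56, Bub1b, of the spindle checkpoint, at 0.42, and Cdk1, the kinase that starts mitosis, at 0.40. With the joint weights 5 of the 66 were past the fold higher (7.58%, beside 4.68% of all genes), Kif20a at 0.54, Kif2c at 0.42, Bub1b at 0.38, Kif18a at 0.34 and Aurka at 0.31, and the median was 0.08. Dlgap5, a spindle protein gene, was lower, at -0.36 and -0.66. Mki67, the common marker of dividing cells, had a median of 12 counts in Myc-rich and 7 in Myc-negative cells, 339.7 against 288.1 CPM. Its ratio of 0.24 was just under the fold, positive in 9 of 10 sets and 0.23 with the joint weights, and Top2a was at 0.05.

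Of 59 measured genes of S phase, 9 were higher (15.3%, near the 12.1% of all genes) and 0 lower, with a median of 0.13, and 0.01 with the joint weights. Chek1, the kinase of the replication checkpoint, had 44.4 and 23.2 CPM and a log2 ratio of 0.91 (-1.67 to 2.87 over the sets), and 0.67 with the joint weights. It was found in 40.8% of Myc-rich (32.1 to 50%) and 24.4% of Myc-negative cells (17.4 to 32.7%) at equal depth. Rpa3 at 0.53, Mcm10 at 0.52, Rpa1, Gins1, Rpa2, Mcm5, Rfc5 and Pcna at 0.29 were the others. With the joint weights Rpa3 was at 0.08 and not past the fold. Mcm10, which helps to activate the replication helicase, was past the fold with the joint weights at 0.34, and so was the helicase gene Blm at 0.54, which was at 0.21 without weights. None of 13 genes of D cyclins and early G1 was past the fold, and Ccnd1 stood at 0.10, Ccnd2 at -0.12 and Cdk4 at 0.19.

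Among inhibitors of the cycle, 2 of 12 measured genes were higher (16.7%, near the 12.1% of all genes). Cdkn2c, which inhibits Cdk4 and Cdk6, had 35.5 and 19.6 CPM, a ratio of 0.83, positive in 9 of 10 sets, and 0.39 with the joint weights. Gadd45g was at 0.59 and 0.04. Cdkn1b (p27), whose gene Myc is known to repress, was at 0.55 and 0.73 but with 6 of 10 sets positive (-1.79 to 2.06), so it was not past the fold. Cdkn1a (p21) was not measured. Of 8 measured p53 target genes 0 were higher and 2 lower (25%, beside 15% of all genes), Eda2r at -0.62 and Sesn1 at -0.56. Sesn1 was past the fold with the joint weights at -0.31.

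The share of Myc-rich cells was larger where the G2 and M phase level was high. Over 3 equal groups of cells from the lowest to the highest level, Myc-rich cells were 22.8% (15.9 to 31.1%), 30.7% (22.8 to 39.5%) and 47.6% (38.7 to 56.7%). These exact binomial intervals cover counting error over cells of 1 sample only, and the shares are not at equal depth. At the highest level, 22 of 38 cells were Myc-rich and 6 Myc-negative. The median long-gene share was 19.7%, 15.8% and 13.6% in the same groups, so it moved with the cycle level as well. The median total was 27630, 34862 and 33602 counts, so the lowest group was also shallower, and shallower cells enter the Myc-rich class less readily. The part of long-gene share and of depth in the result was not tested. Across Myc counts of 0, 1, 2, 3 to 4, and 5 or more, the mean level was 8306, 9073, 9080, 9464 and 10424 CPM. Relative to the cells at 0 and with the joint weights, the list medians for the other 4 classes were 0.08, -0.02, 0.01 and 0.11.

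**Figure D4:**
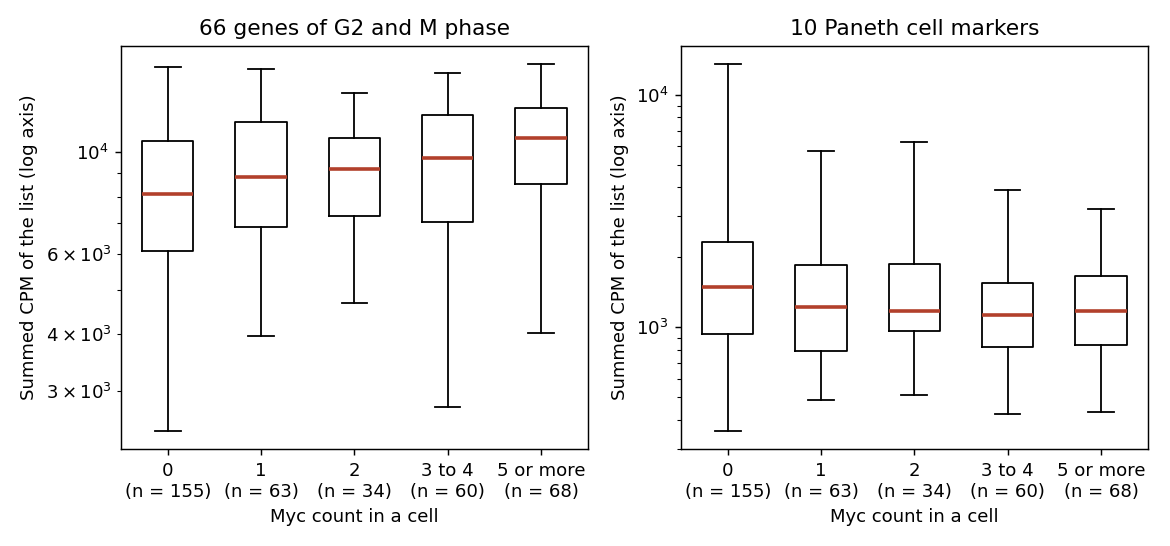
Summed CPM per cell (y axis, log scale) of 66 genes of G2 and M phase (left) and 10 Paneth cell markers (right) by Myc count (x axis), with boxes for the quartiles, red lines for the medians and whiskers to the lowest and highest cell. The G2 and M phase median is higher in cells with 5 or more Myc counts than in cells with 0, and the highest Paneth cell levels, up to 13557 CPM, are in cells with 0.

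Markers of Paneth cells, the defensin-secreting neighbours of the stem cells, were lower in Myc-rich cells. The summed level of 10 markers had a median of 1153 CPM in Myc-rich cells (422 to 3898) and 1483 CPM in Myc-negative cells (357.8 to 13557). Of 9 measured markers, 0 were past the fold higher and 7 lower (77.8%, beside 15% of all genes), with a median log2 ratio of -0.66. Lyz1, lysozyme, had a median of 6 counts in Myc-rich and 5 in Myc-negative cells but a mean of 192.4 against 303.8 CPM, a ratio of -0.66 that was negative in 9 of 10 sets (-1.47 to 0.97). Lyz2 was at -1.55, Defa22 at -1.65, the lipase gene Pnliprp2 at -0.94, Itln1 at -0.65, Defa17 at -0.60 and Defa24 at -0.46. With the joint weights the median was -0.35 and 6 of the 7 were past the fold. Lyz1 and Lyz2, and the defensins, are near-identical copies among which reads can be split, so single members are uncertain.

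The median log2 ratio of the Paneth markers moved when the 38 cells with the highest summed level were left out, though the levels differed more widely. Over 3 equal groups of cells from the lowest to the highest summed level, Myc-rich cells were 42.5, 33.9 and 24.6%. Depth moved with these groups too, with median totals of 35227, 31936 and 29138 counts. Among the 38 cells with the highest summed level, 10% of the kept cells (3017 to 13557 CPM), 25 were Myc-negative and 6 Myc-rich. The other 7 were in neither class and entered no ratio. These 38 cells were shallow, with a median total of 21645 counts. Among the 38 lowest cells there were 13 of each class. Without the 10% highest cells the list median was -0.04 and the ratio of Defa22 was 0.34. Those cells were left out by the Paneth level itself, which bears on these ratios directly. As a mean of log2 values per cell, without weights and so not at equal depth, the Lyz1 difference was 0.02. At equal depth Lyz1 was found in 95.2% of Myc-rich and 88.5% of Myc-negative cells, a difference that ran from -2.77 to 7.45 points over 20 other draws. The mean summed level was higher in Myc-negative cells in 9 of 10 library sets. Across Myc counts the mean of the 9 measured markers was 2097 CPM at 0, then 1480, 1485, 1325 and 1376 CPM.

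Goblet cell markers were lower too, in 4 of 7 measured genes (57.1%, beside 15% of all genes) with 0 higher. The list median was -0.65, and -0.29 with the joint weights. Without weights it ranged from -2.13 to 1.22 over the sets and was above 0 in 2 of 10. With the joint weights 3 of the 7 were past the fold lower (42.9%, beside 6.68% of all genes). Agr2, needed for mucin folding, had 67.4 and 121.8 CPM, a ratio of -0.84 (-2.23 to 1.34 over the sets), and -0.59 with the joint weights. Fcgbp was at -0.65, Spink4 at -0.62 and the trefoil factor Tff3 at -0.27, while Muc2, the main mucin, was at -0.54 with 6 of 10 sets negative and so was not past the fold. Of the 38 cells with the highest summed goblet level, 29 were Myc-negative and 4 Myc-rich. Those cells were also shallow, with a median of 21591 counts. None of 3 measured tuft cell genes was past the fold, and of 9 enterocyte genes 1 was lower (11.1%, near the 15% of all genes), Sis at -0.74.

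Stem cell and Wnt genes differed little between the classes. In a list of 22 intestinal stem cell genes, 1 was past the fold higher (4.55%, under the 12.1% of all genes) and 0 lower. It was Aqp4, a water channel gene, with a median of 3 counts in Myc-rich and 2 in Myc-negative cells, 114.2 against 75.6 CPM, and a ratio of 0.59 that was positive in 10 of 10 sets (0.03 to 1.05), and 0.40 with the joint weights. The Wnt target genes Axin2 at 0.21 and Ascl2 at 0.23 were under the fold, and Sox9 at -0.19 was past it only with the joint weights, at -0.30. Of 32 measured Wnt pathway genes, 1 was higher (3.1%) and 2 were lower (6.25%), under the 12.1 and 15% of all genes. Fzd5, a Wnt receptor, had 73 and 40.6 CPM, a ratio of 0.83 (-0.30 to 1.41) and 0.68 with the joint weights. The coreceptor gene Lrp5 was at -1.05 and -0.64, and the repressor gene Tcf7l1 at -0.95 and -0.16. Lrp5 and Tcf7l1 span 101.7 and 162.9 kb and Fzd5 7.19 kb. None of 4 measured reserve stem cell genes was past the fold. Mex3a, the gene of the study's title, was under the level needed to be measured, at 6.95 and 9.72 CPM.

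Other signalling lists gave single genes. Of 23 immediate early genes 2 were higher (8.7%, under the 12.1% of all genes), Klf4 at 0.41 and Zfp36. Fos at 0.04, Jun at -0.05 and Egr1 at 0.05 were not past the fold. Nrarp, a feedback inhibitor of Notch, was at 0.76 and 0.51 with the joint weights, and Maml1, a Notch coactivator, at -0.84 and -0.46. In the BMP pathway Id1 at 0.46 and Smad4 at 0.29 were higher and Bmpr1b at -0.65 was lower, and none of the 3 was past the fold with the joint weights. Of 15 genes of EGF receptor and MAP kinase feedback, 1 was lower (6.67%, under the 15% of all genes), the inhibitor gene Spred2 at -0.42. MHC class II genes gave 2 of 6 higher (33.3%, beside 12.1% of all genes), Cd74 at 0.37 and H2-Aa at 0.32, and 0 past the fold with the joint weights. All 6 ratios were above 0 without weights, and the list median was positive in 10 of 10 sets (0.00 to 0.53). Cd74 and H2-Aa are also 2 of the 3 measured immune markers, the other being Lyz2. Cdx2, the homeobox regulator of intestinal epithelium, was the 1 epithelial marker past the fold, at 0.61, positive in 10 of 10 sets (0.01 to 1.76), and 0.41 with the joint weights.

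**Figure D5:**
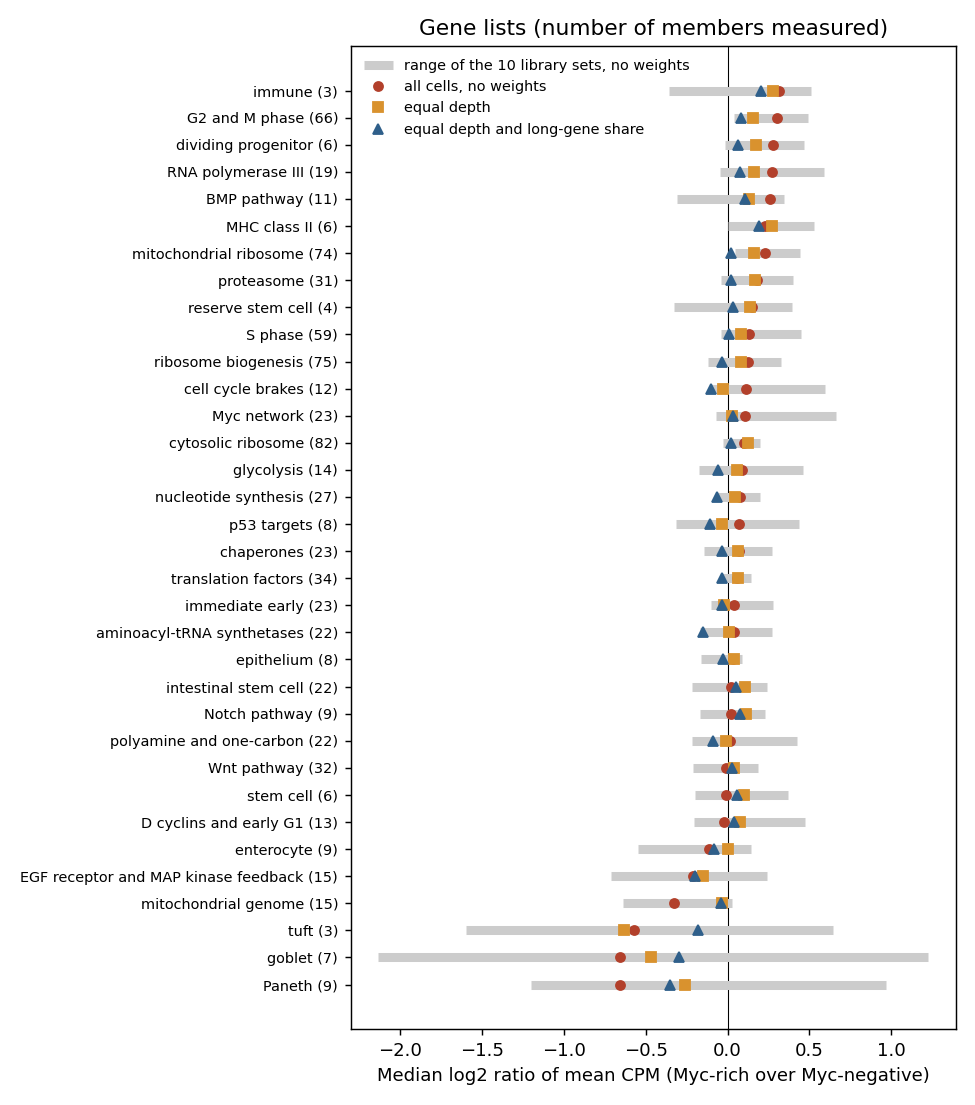
Median log2 ratio of mean CPM, Myc-rich over Myc-negative (x axis), for each list with at least 3 measured members (y axis, number measured in brackets), without weights (circles), at equal depth (squares) and at equal depth and long-gene share (triangles), with grey bars for the range of the 10 library sets without weights. G2 and M phase, the mitochondrial ribosome and MHC class II lie above 0 in 10 of 10 sets. Paneth and goblet markers are the lowest without weights, tuft markers at equal depth (-0.63), and most triangles lie nearer to 0 than the circles.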

How the data were processed

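The deposited table holds whole-number counts, 1 per gene and cell, for 33496 genes and 400 cells, not normalized by the authors as far as the values show. The labels name the capture and cDNA chemistry. The genome build is GRCm38.p4, per the submitters' processing notes, and the aligner, the counter, the strand setting and molecular identifiers are not given in the sources used. The highest count of any gene in any cell was 36. Symbols, spans and exon overlaps came from GENCODE M21, and 33219 rows had a symbol. Spike-in rows numbered 0.

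Cells with 10000 counts or more were kept (128 Myc-rich, 155 Myc-negative and 97 between), and doublets were not removed. Ratios are log2 of mean CPM plus 1, Myc-rich over Myc-negative. Equal depth means Myc-negative cells weighted over 5 strata of total counts, and the joint weights use 3 by 3 strata of total counts and long-gene share. Genes past the fold with the joint weights met the same library-set and equal-depth conditions as without them. Shares of cells were read after thinning to 19169 counts, the 10th percentile, which left 125 Myc-rich and 131 Myc-negative cells. Python 3.11.15, numpy 2.4.6, pandas 2.3.3 and scipy 1.17.1 were used, and the ratio code was tested on simulated data.

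The members and gene lists were chosen with earlier results of these data known, and the long-gene share and the joint weights were chosen after seeing the data. Named genes were the 15 highest and 10 lowest protein-coding genes past the fold, all measured Myc network genes, the 2 highest and 2 lowest members of every other list, and 26 further genes chosen for their roles. Other list members past the fold are named from the full lists, and 9 genes, Pvt1 among them, were added after their values were seen. Of 204 genes so tabulated, 72 have exons that overlap another gene, and without strand their counts are uncertain. One member of the Myc network list is counted but not reported here by name.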

Additional observations from a re-analysis of the deposited data

Results flagged for a closer look

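In library set 5 the median log2 ratio of the 9 measured Paneth cell markers was 0.97, while the median of the 10 sets was -0.68. The gap to the next set was 0.541 of the whole range, above the limit of 0.466 for 10 values. That set held 19 Myc-rich and 10 Myc-negative cells, and its Myc-negative cells had a mean summed Paneth level of 774 CPM, the lowest of the 10 sets. In all, 12 groups of set values were checked in this way, and chance marks about 1 group in 20.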

How the results depend on the processing

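The genes past the fold, higher in Myc-rich and lower in Myc-rich cells, are given as percent of the genes measured under each setting, beside 12.1 and 15% above. They were 6.95 and 2.07% in the cells below the median long-gene share, 6.3 and 6.23% with weights on 5 strata of long-gene share, 4.68 and 6.68% with the joint weights, and 5.53 and 9.71% with a Myc count of 5 or more. Thinned counts and thinned classes gave 6.4% for genes past the fold, higher in Myc-rich cells. For genes past the fold, lower in Myc-rich cells, a filter of 50% of cells gave 11.2% and no filter 9.34%, and without a filter genes past the fold, higher in Myc-rich cells were 4.97%. A filter on the mean over all kept cells, added after seeing the data, gave 12.2 and 13.3%. Leaving out 1 library set gave 6.0 to 15.9% and 9.12 to 17.8%. The low ends come from asking for 8 of 9 sets, which is stricter by construction, and with 7 of 9 the lowest values were 13.4 and 15.9%. In the order of cells below the median, 5 strata of long-gene share, joint weights and mean log2 values, list medians were -0.059, -0.038, -0.033 and 0.48 for ribosome biogenesis, -0.032, 0.011, 0.019 and 0.59 for the mitochondrial ribosome, and -0.10, -0.049, 0.024 and 0.20 for the cytosolic ribosome. The G2 and M phase median was 0.083 with the joint weights, 0.073 with weights on 3 strata of the cell cycle level and 0.60 with mean log2 values, which gave 0.49 for S phase. Mean log2 values are without weights and move with the share of cells at 0, so the difference in depth bears on them. Their median over all genes is not given, so these list values have nothing beside them. The mitochondrial genome stood at -0.042 with the joint weights, -0.037 at equal depth and -0.070 with thinned classes. Differences in shares reached -2.77 points for Lyz1 and -3.66 for Muc2 among 20 other draws. Without a gene filter the immune median was -0.26. Directions also turned in the cells below the median long-gene share for Aldh1a2 (0.35), Eda2r (0.20), Emcn (0.29), Gadd45g (-0.061), Hk1 (0.31), Klf4 (-0.013), Maml1 (0.059), Masp1 (0.63), Psma3 (-0.0024), Pvt1 (0.30), Smad4 (-0.038) and Tcf7l1 (0.41). With 5 strata of long-gene share and the joint weights they turned for Bmpr1b (0.10 and 0.045) and Pvt1 (0.12 and 0.0019), with mean log2 values for Lyz1 (0.016), with thinned classes for Tff3 (0.034) and without the highest Paneth cells for Defa22 (0.34). The cause was not tested. Pairing each Myc-rich cell with the nearest Myc-negative cell did not equalise depth, with mean totals of 36319 and 31665. Within each library set the classes were compared as above, and no label pairs single cells. Few counts per gene and cell limit single genes, and no animal is named.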
